A study of Drosophila melanogaster with 6 samples.

Results

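The innexins are the channel proteins of invertebrate gap junctions, and 8 genes of this family were followed through the cell types of the Drosophila melanogaster testis. They are zpg (zero population growth, also called Inx4), Inx2, Inx3, ogre (Inx1), Inx5, Inx6, Inx7 and shakB (Inx8). All members of the family that the count matrices hold were taken, 8 of 17612 genes, whatever their level. The question was where each of them is expressed in the germline and in the soma that surrounds it, and whether the levels differ between wild-type and chinmoST testes.

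A gap junction forms when a set of innexins in the membrane of 1 cell docks with a set in the neighbouring cell, so that small molecules pass directly between both. In the fly gonad, zpg is known as the germline innexin and is required for early germ cells to survive and differentiate, and Inx2 is known as its partner in the somatic cells. The cyst lineage, which descends from the cyst stem cells (CySCs), encloses the germ cells from the stem cell stage onward, so most germ cells touch soma throughout their development.

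Wild-type males were of the Oregon R strain. The chinmoST males carry an allele that lowers chinmo, a gene for a transcription factor, in the cyst lineage, and their genotype label names Sod1[X-39] and e[1], over the balancer TM3 with the markers Sb[1] and Ser[1]. Testes were taken from adult males of 3–5 d, 6–8 d and 9–11 d, with 1 library for each genotype and age, raised at 25 °C. Each library pooled about 100 pairs of testes, from which spermatids were depleted by filtration before droplet sequencing of RNA 3′ ends. The label names no chinmo allele and the strains differ in more than chinmo, so chinmo and strain background cannot be told apart.

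The authors' table of cells kept 26549 of 31832 barcodes and gave each a cell type, 6 of the germline and 11 somatic, and these names were used unchanged. The median depth of a kept cell ranged from 1865 to 4123 UMIs between libraries. A UMI (unique molecular identifier) stands for 1 captured RNA molecule. The 3–5 d libraries stood apart from the later ones in how many barcodes they held, 4772 and 7060 against 5000 in each later library, and they shared 34 kept barcodes with each other, while no other pair of libraries shared more than 7. Of 12 marker lists, 10 were highest in the type they name. The cyst lineage list was in rank 2 in CySCs, after hemocytes. The hub list (Fas3, org-1, upd1) was only in rank 4 in the cells labelled hub. There upd1, the signal that defines the hub, had 1 UMI in each chinmoST library and none in wild-type. By contrast, org-1 had 1 to 26 UMIs per library and Fas3 had 26 to 121. By age, the list was at 75.7, 171 and 124 CPM in these wild-type cells, against at most 1 UMI per library in wild-type CySCs. In chinmoST it was at 129, 168 and 287 CPM, against 27.6, 117 and 239 CPM in CySCs. Terminal epithelial cells were higher still (mean 539 CPM against 159 CPM). The list thus does not single out these cells, and the name hub cells follows the label. In CySCs, chinmo stood at 324, 679 and 572 CPM in the wild-type libraries and at 5.91, 87.4 and 2.78 CPM in the chinmoST libraries, ordered here and below by age from 3–5 d to 9–11 d. The genotypes overlapped in early cyst cells, at 70.0, 49.8 and 162 CPM (wild-type) against 14.1, 176 and 93.6 CPM (chinmoST), and in hub cells, at 160 to 522 CPM (wild-type) against 61.5 to 256 CPM (chinmoST). CPM is the number of UMIs of a gene per 1000000 UMIs summed over all cells of a type in a library.

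Of the 8 genes, zpg (FBgn0024177) lies on chromosome 3L from 6604366 to 6606032 and Inx3 (FBgn0265274) on 3R from 28853606 to 28859497, both on the minus strand of dm6. The other 6 are on the X chromosome. There ogre (FBgn0004646, 6973620 to 6991318, minus strand), Inx7 (FBgn0027106, 6991612 to 6993612, minus strand) and Inx2 (FBgn0027108, 6998672 to 7004151, plus strand) are neighbours, and Inx5 (FBgn0030989) starts at 19168777, Inx6 (FBgn0027107) at 20267821 and shakB (FBgn0085387) at 20761071. The 3′ ends of zpg and Inx3 overlap Rexo5 and spg on the other strand, so their counts rest on reads having been assigned by strand, a setting not given in the sources used here, and shakB overlaps 17 other annotated features. At its 3′ end Inx5 overlaps a pair of features on its own strand (FBtr0309726_df_nrg and mir-4959), which strand cannot separate from it.

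The innexins divided the testis into 3 domains. GSCs/spermatogonia, the germline stem cells and their dividing daughters, held mainly zpg. Spermatocytes and spermatids held Inx5 and ogre, with some Inx6. Most of the soma held Inx3 and Inx2, joined in CySCs by ogre and Inx7, while pigment and muscle cells held a mixture. Over all kept cells Inx3 gave 14383 UMIs, Inx5 5622, ogre 4267, Inx2 3796, zpg 2031, Inx6 520, Inx7 170 and shakB 159. A 3′ UMI counts a molecule once whatever its length, so these totals compare molecules, but they also follow how many cells of each type were captured. Cell types had been made by clustering the same cells, and zpg was among the genes used to name GSCs/spermatogonia, so the levels by type are a description and were not tested.

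**Figure D1:**
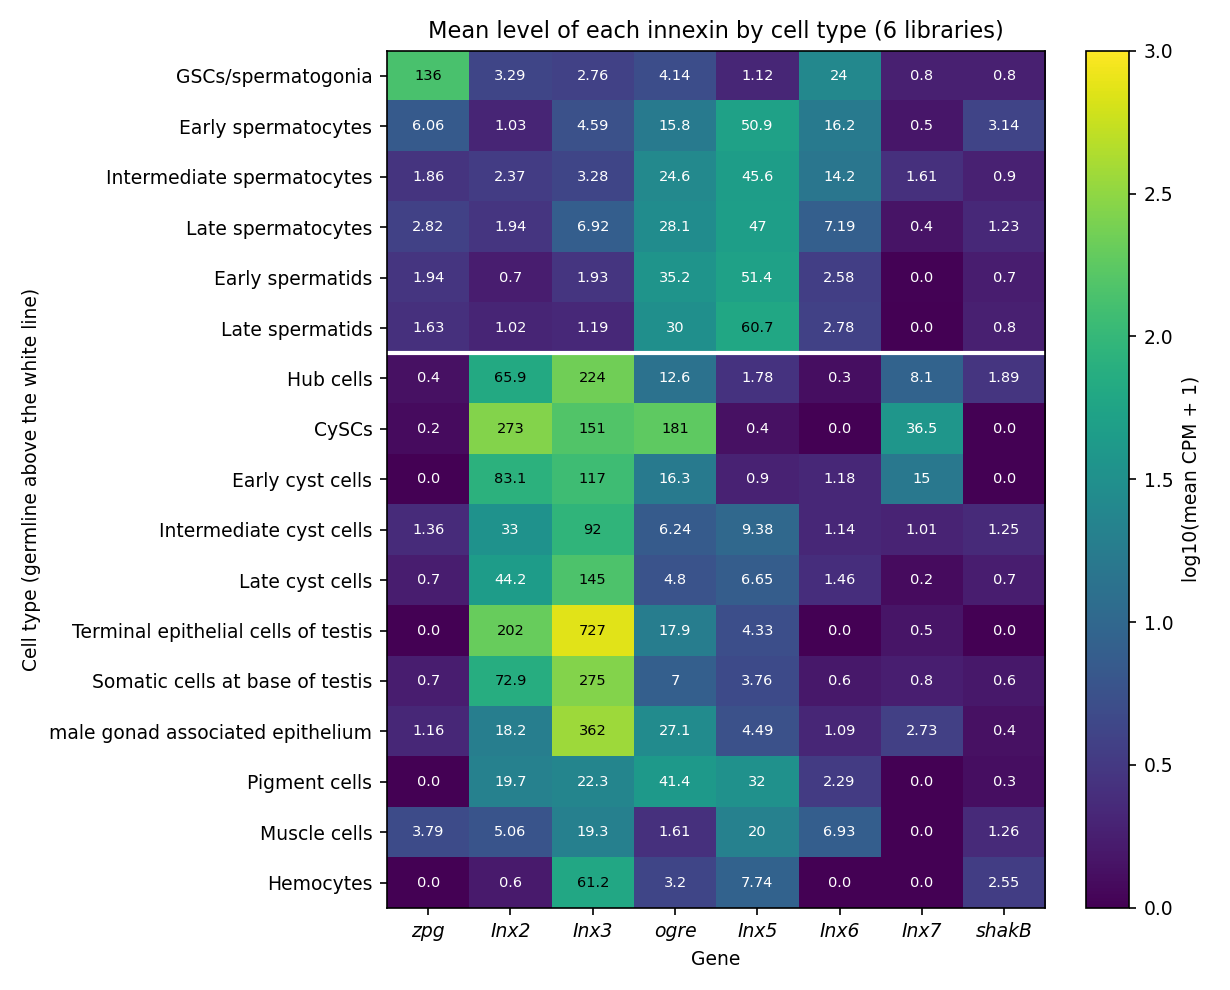
Mean CPM over 6 libraries of each innexin (columns) in each cell type (rows), coloured by log10(mean CPM + 1), with germline types above the white line. zpg stands out at 136 CPM in GSCs/spermatogonia, Inx3 at 727 CPM in terminal epithelial cells, and the Inx6 value of 24 CPM in GSCs/spermatogonia comes mostly from 3 UMIs of the wild-type library of 6–8 d.

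With libraries pooled, zpg made up 92.9% of all innexin UMIs in GSCs/spermatogonia, but 1658 of its 1760 UMIs there came from chinmoST. In wild-type its 102 UMIs stood beside 12 of ogre, 10 of Inx2, 7 of Inx3 and fewer of each other innexin. The zpg level in GSCs/spermatogonia was 161, 0 and 232 CPM in the wild-type libraries and 246, 98.0 and 80.8 CPM in the chinmoST libraries. The genotypes overlapped, and the libraries differed widely in how much they could show. The wild-type libraries of 6–8 d and 9–11 d held 6 and 4 of these cells and 0 and 5 zpg UMIs, and 0 UMIs there allows a level of up to 138 CPM. By contrast, the wild-type library of 3–5 d held 18 such cells and the chinmoST libraries held 49, 211 and 162.

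The share of GSCs/spermatogonia with at least 1 zpg UMI was 83.3% (15 of 18 cells, exact Clopper-Pearson 95% interval 58.6 to 96.4%), 0 of 6 and 2 of 4 cells in wild-type, and 93.9% (83.1 to 98.7%), 36.5% (30.0 to 43.4%) and 71.0% (63.4 to 77.8%) in chinmoST. In somatic cells, which should lack the gene, the share was between 0.0723% and 2.09% per library. The low share of the chinmoST library of 6–8 d went with its depth, a median of 1807 UMIs per cell against 38045 and 63120.5 in the others. Among its 61 cells with at least 10000 UMIs, 51 had zpg. When every cell was thinned to 1000 UMIs the shares of the chinmoST libraries were 23.7%, 9.42% and 8.58%, so the later libraries were lower at equal depth as well. Intervals here cover counting error only.

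After the spermatogonial stage zpg was low. Its mean over 6 libraries was 1.86 CPM in intermediate spermatocytes, 2.82 in late spermatocytes, 1.94 in early spermatids and 1.63 in late spermatids. In the whole cyst lineage it lay between 0.114 and 3.01 CPM. A single zpg UMI was found in 110 CySCs and none in 199 early cyst cells, 388 terminal epithelial cells and 572 pigment cells. Over all germ cells after the spermatogonia zpg was at 1.56, 0.970 and 1.10 CPM (wild-type) against 2.25, 2.97 and 7.27 CPM (chinmoST). Over all somatic cells of the same libraries it was at 0.892, 0.341 and 0.0833 CPM (wild-type) against 0.633, 0.799 and 2.86 CPM (chinmoST). The germ cells were thus above the soma in 6 of 6 libraries, at a level far under that of GSCs/spermatogonia, and the soma was itself highest in the library where the germ cells were. The part of free RNA in these low values was not tested.

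**Figure D2:**
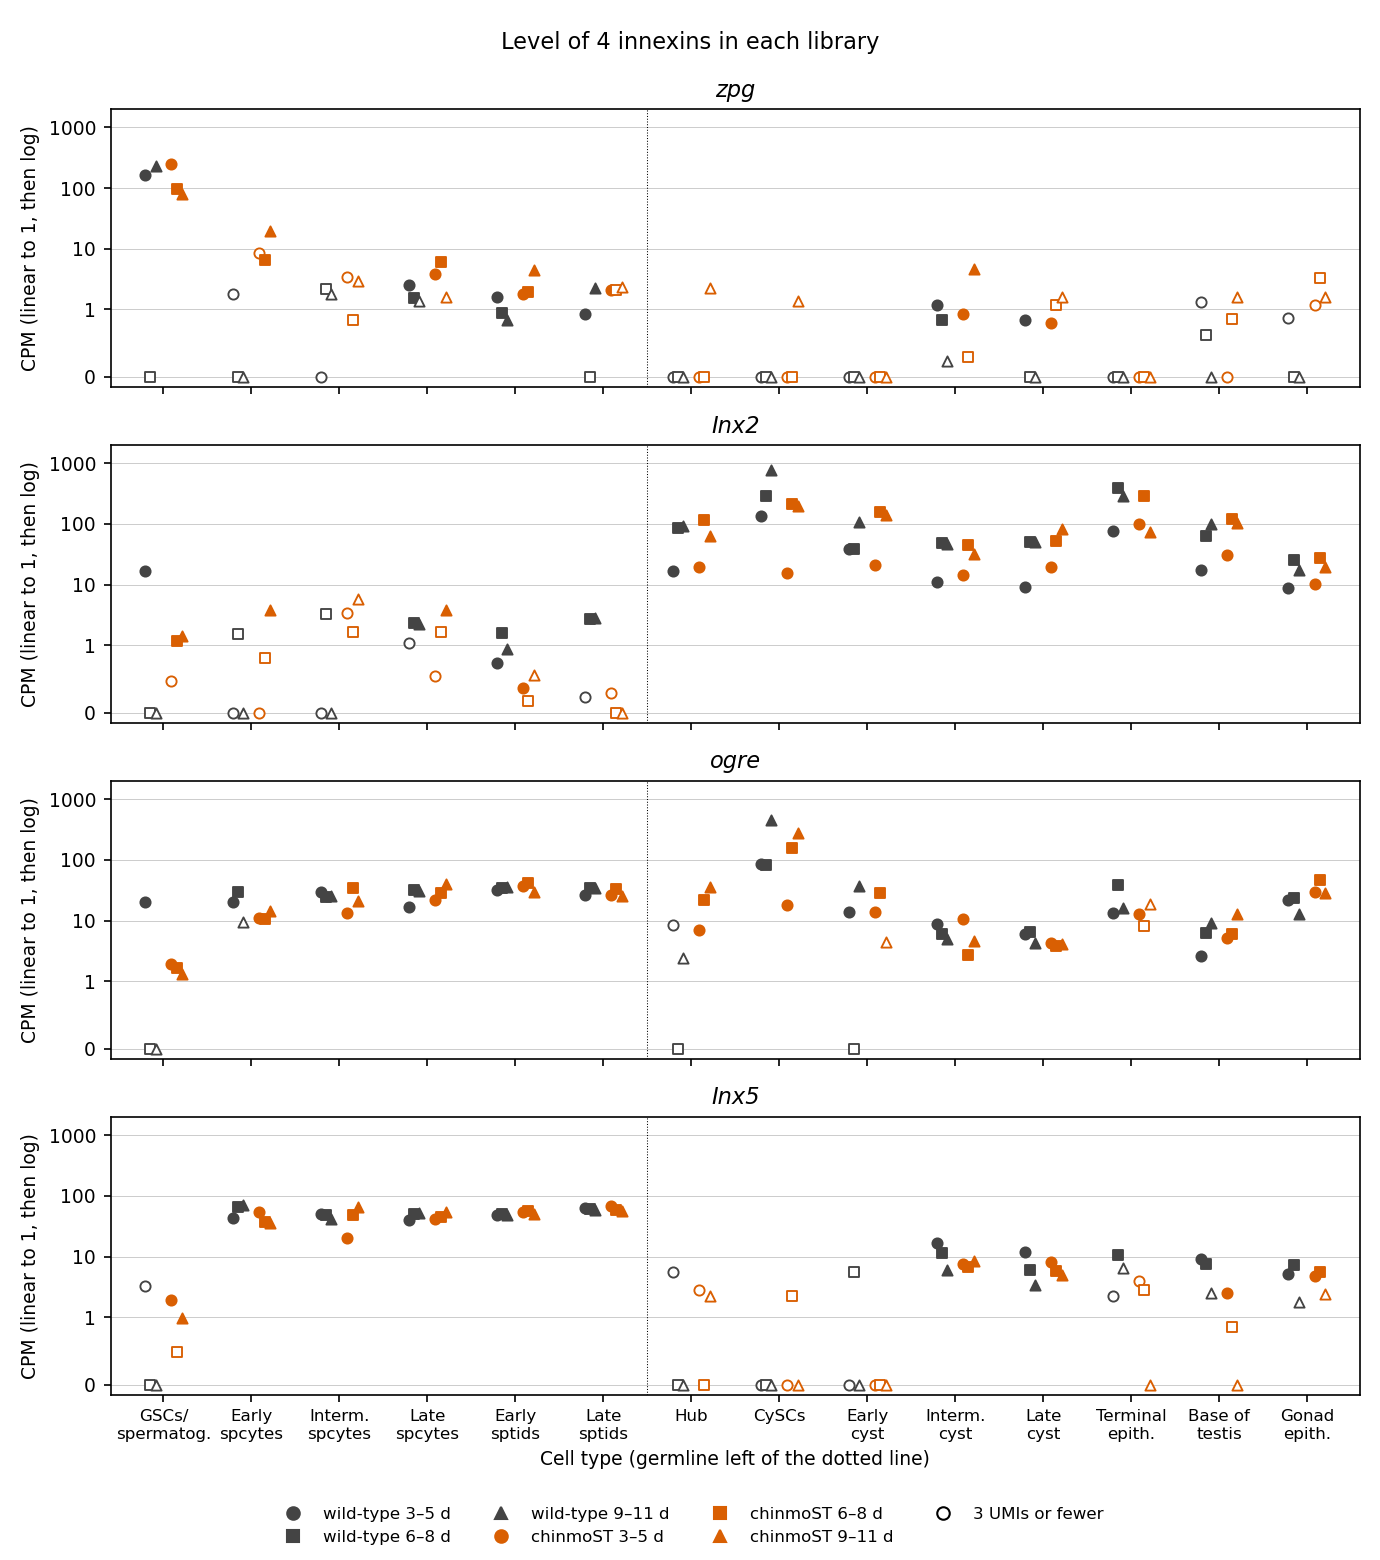
Level of zpg, Inx2, ogre and Inx5 in each library (CPM, linear up to 1 and logarithmic above) in 14 cell types, with genotype by colour, age by shape and open symbols for 3 UMIs or fewer (spcytes: spermatocytes, sptids: spermatids). zpg is highest in GSCs/spermatogonia, Inx2 lies mostly to the right of the dotted line with 16.6 CPM in GSCs/spermatogonia of the wild-type library of 3–5 d, and Inx5 lies between 20.3 and 70.4 CPM in all spermatocytes and spermatids.

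Inx2 was a somatic transcript, with 96.4% of its UMIs in somatic cells. Its level over the germline as a whole was between 0.421 and 1.94 CPM per library and over the soma between 13.6 and 75.5 CPM. CySCs were highest on average. They stood at 133, 292 and 786 CPM (wild-type) against 15.8, 217 and 196 CPM (chinmoST), with overlap between the genotypes and the lowest value of each genotype at 3–5 d. These sums rest on few cells, 9, 4 and 7 (wild-type) against 26, 33 and 31 (chinmoST), and all 28 Inx2 UMIs of the wild-type library of 6–8 d came from 1 cell.

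Terminal epithelial cells, which line the base of the testis, followed with 75.9, 388 and 286 CPM (wild-type) against 101, 290 and 74.0 CPM (chinmoST). In hub cells Inx2 was at 16.8, 87.2 and 90.9 CPM (wild-type) against 19.6, 118 and 62.9 CPM (chinmoST). Along the cyst lineage its mean over 6 libraries was 273 CPM in CySCs, 83.1 in early, 33.0 in intermediate and 44.2 in late cyst cells. All 16 neighbouring pairs of types in the order of Inx2 levels overlapped in range, so the order is not resolved step by step. With each cell given equal weight, or without the wild-type library of 9–11 d, terminal epithelial cells and not CySCs came first.

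Only 14 of 450 GSCs/spermatogonia had an Inx2 UMI, and all 14 also had zpg. In the wild-type library of 3–5 d these were 5 of 18 cells with 10 Inx2 UMIs, or 16.6 CPM. Intermediate and late cyst cells of that library were at 11.2 and 9.16 CPM and its hub cells at 16.8 CPM. With 10 UMIs the order of these values is not resolved. In the chinmoST libraries Inx2 in GSCs/spermatogonia was at 0.478, 1.19 and 1.43 CPM. The 5 wild-type cells had a median of 59552 UMIs per cell against 26273.5 over all 18, and 4 of the 5 also had a UMI of the cyst lineage genes (tj, zfh1, eya, so, ptc). Such genes were also present in 5 of the other 13 cells. The part of captured somatic RNA, or of a somatic cell in the same droplet, was not tested.

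Inx3 had more UMIs than any other innexin in 6 of 6 libraries in hub cells, intermediate and late cyst cells, terminal epithelial cells, somatic cells at the base of the testis, the male gonad associated epithelium and hemocytes. In early cyst cells it came first in 4 of 6 libraries, with Inx2 above it in the chinmoST libraries of 6–8 d and 9–11 d, in CySCs in 2, and in muscle and pigment cells in 1 each. It contributed 71.3% of innexin UMIs in hub cells, 74.9% in late cyst cells, 77.3% in terminal epithelial cells and 87.3% in the male gonad associated epithelium, a tissue attached to the testis that is marked here by MtnA. Its level in terminal epithelial cells was 670, 846 and 732 CPM (wild-type) against 734, 989 and 388 CPM (chinmoST), the last from 9 cells. In hub cells it was 174, 224 and 311 CPM (wild-type) against 179, 285 and 171 CPM (chinmoST). Throughout the cyst lineage and the epithelia every library held Inx3 at 65.5 CPM or more, at each age and in both genotypes, while pigment and muscle cells averaged 22.3 and 19.3 CPM. Its share of germline cells with a UMI was 0.747% to 4.63% per library, and its germline level was 1.23 to 3.95 CPM.

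In CySCs the mixture varied between libraries. With libraries pooled, Inx2 made up 39.8% of innexin UMIs, ogre 34.0%, Inx3 21.7% and Inx7 4.40%. At 3–5 d, however, Inx3 came first, with 36.5% of innexin UMIs in wild-type (19 Inx3 UMIs) and 80.5% in chinmoST (70 Inx3 UMIs), and in the later libraries Inx2 or ogre did, with Inx3 between 6.21% and 40.6%. ogre, first known from the optic lobes and required there for normal neuroblast numbers, was at 85.7, 83.6 and 461 CPM in wild-type CySCs and at 17.7, 157 and 281 CPM in chinmoST. Its mean over 6 libraries was 181 CPM in CySCs, 16.3 in early, 6.24 in intermediate and 4.80 in late cyst cells. Inx7 followed the same course at lower levels, with 36.5 CPM in CySCs, 15.0 in early, 1.01 in intermediate and 0.226 in late cyst cells, and 53 of its 170 UMIs lay in CySCs. In hub cells ogre was lower, at 8.41, 0 and 2.39 CPM (wild-type) against 6.99, 21.9 and 35.9 CPM (chinmoST).

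**Figure D3:**
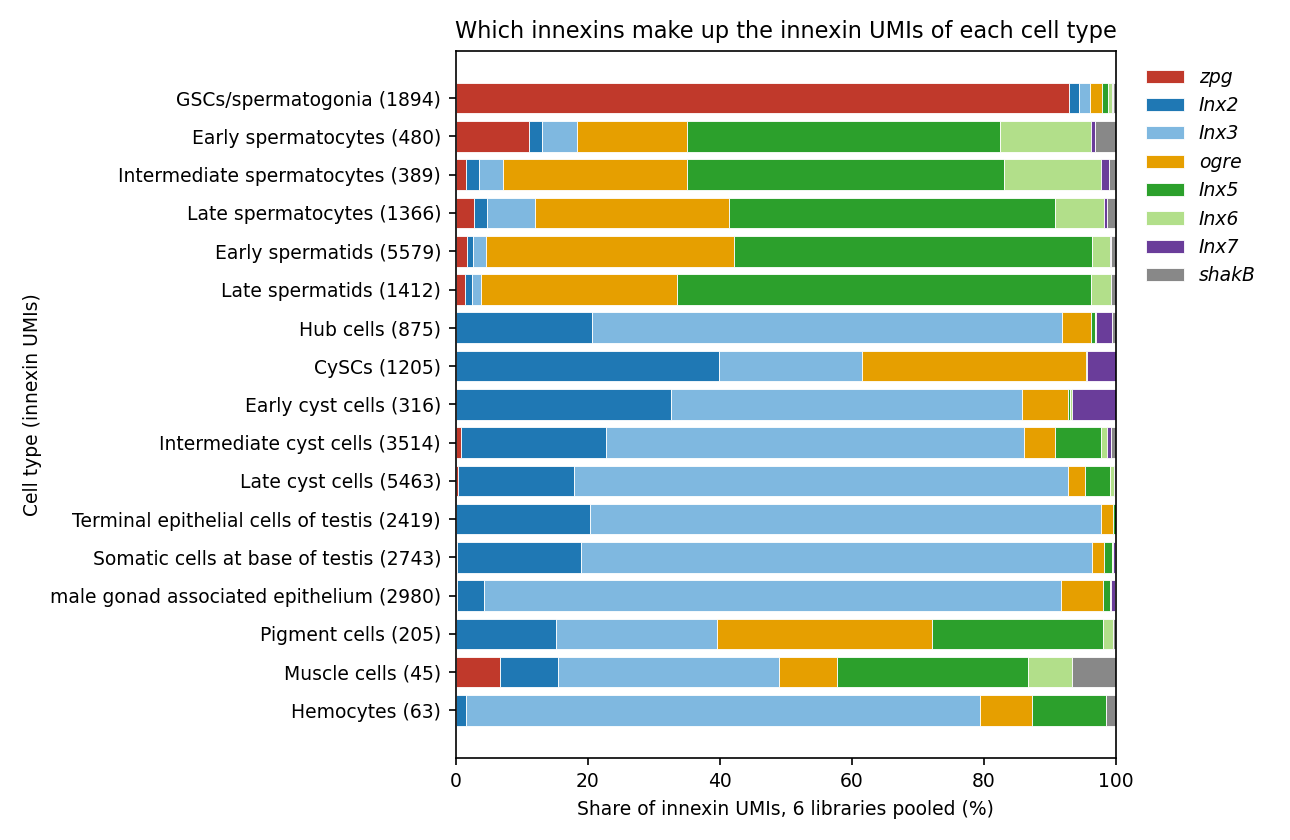
Share of each innexin in the innexin UMIs of a cell type (%, libraries pooled), with the number of innexin UMIs in parentheses. GSCs/spermatogonia hold mostly zpg, later germ cells Inx5 and ogre, and CySCs Inx2, ogre and Inx3. The remaining soma holds mostly Inx3, except pigment cells (24.4%) and muscle cells (33.3%).

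In the germline after the spermatogonia, Inx5 and ogre were the main innexins. The share of Inx5 among innexin UMIs was 47.5% in early and 49.3% in late spermatocytes, and 62.7% in late spermatids. Its level was even. In early spermatids it was 47.8, 49.9 and 48.4 CPM (wild-type) against 54.1, 57.1 and 51.0 CPM (chinmoST), and in late spermatids 63.1, 60.2 and 58.4 CPM (wild-type) against 68.1, 58.0 and 56.1 CPM (chinmoST). Across spermatocytes and spermatids the mean of a type varied only from 45.6 to 60.7 CPM, and GSCs/spermatogonia were at 1.12 CPM.

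ogre was at 31.6, 34.9 and 36.3 CPM in wild-type early spermatids and at 37.6, 41.3 and 29.3 CPM in those of chinmoST. Its mean ranged from 15.8 CPM in early spermatocytes to 35.2 CPM in early spermatids, and 73.5% of its UMIs were germline. In GSCs/spermatogonia it was at 19.9, 0 and 0 CPM (wild-type) against 1.91, 1.67 and 1.32 CPM (chinmoST). Outside the germline and CySCs, ogre was also found in pigment cells (mean 41.4 CPM, 32.7% of their innexin UMIs) and in the male gonad associated epithelium (27.1 CPM). In chinmoST, where GSCs/spermatogonia were well sampled, ogre was lower there than in early spermatocytes of the same library (11.2, 10.6 and 14.3 CPM). In wild-type no such difference was detectable, since the 3–5 d library held it at 19.9 CPM in both types and 0 UMIs in the others allow up to 138 and 139 CPM. In the cyst lineage the mean of ogre was highest in CySCs, although the chinmoST library of 3–5 d had 17.7 CPM there and 14.1 in early cyst cells.

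Inx6 was the third member found in later germ cells. Its mean was 16.2 CPM in early spermatocytes, 14.2 in intermediate and 7.19 in late spermatocytes, and 2.58 in early spermatids. All 6 libraries had Inx6 UMIs in each of these types. The ranges of the 3 spermatocyte stages overlapped, from 3.61 to 30.9 CPM, while all late spermatocyte values lay above those of early spermatids, 1.79 to 3.32 CPM. shakB, the neuronal innexin of the giant fibre circuit, never rose above 3.14 CPM on average in any type, and 15 UMIs in early spermatocytes were the base of that value.

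The genes whose levels ran most like each innexin were sought over 81 sums of a type in a library with at least 20 cells, among 11073 genes with at least 200 UMIs. The measure is Pearson's r of log2(CPM + 1). It is a description, since the points share libraries and cell types. For zpg they were Kots (r = 0.82), CG2839 (0.81), gnu (0.81), vas (0.81) and CG4570 (0.80), of which vas is the classical germline RNA helicase and gnu is known from the early embryo. For Inx2 they were Tollo (r = 0.90), Gp150 (0.89), sdt (0.85), Sap-r (0.83) and Vha68-2 (0.83), of which sdt is a partner of Crumbs at the apical side of epithelia. Inx3 was ranked 34th for Inx2 (r = 0.78).

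The genes most like Inx3 were Lac (r = 0.96), an adhesion protein of septate junctions, cib (0.93) and Sply (0.91). Those most like Inx5 were CG32459 (r = 0.95), CG33489 (0.94) and CG8043 (0.94), and those most like Inx6 were Rab9E (0.87), lncRNA:CR44681 (0.86) and DZIP1 (0.86). ogre had no close match, with bdl (r = 0.64), w (0.60) and CG12206 (0.60) as its nearest. Inx5 and Inx6 were alike (r = 0.70), while Inx5 and Inx3 ran opposite (r = -0.70).

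The comparison of chinmoST with wild-type asks whether the innexins change with the allele that lowers chinmo. Summed UMIs were tested per type with edgeR's quasi-likelihood test, with the library as the unit and Benjamini-Hochberg adjustment over all genes of the type. The filter on low counts left 39 pairs of an innexin and a type. No pair passed the adjusted threshold of 0.05, and 1 of 39 had an unadjusted p under 0.05. Over all genes and types 0.562% of tests were called and 10.7% had such an unadjusted p. DESeq2 and the fit with age as a block also called 0 of these 39.

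**Figure D4:**
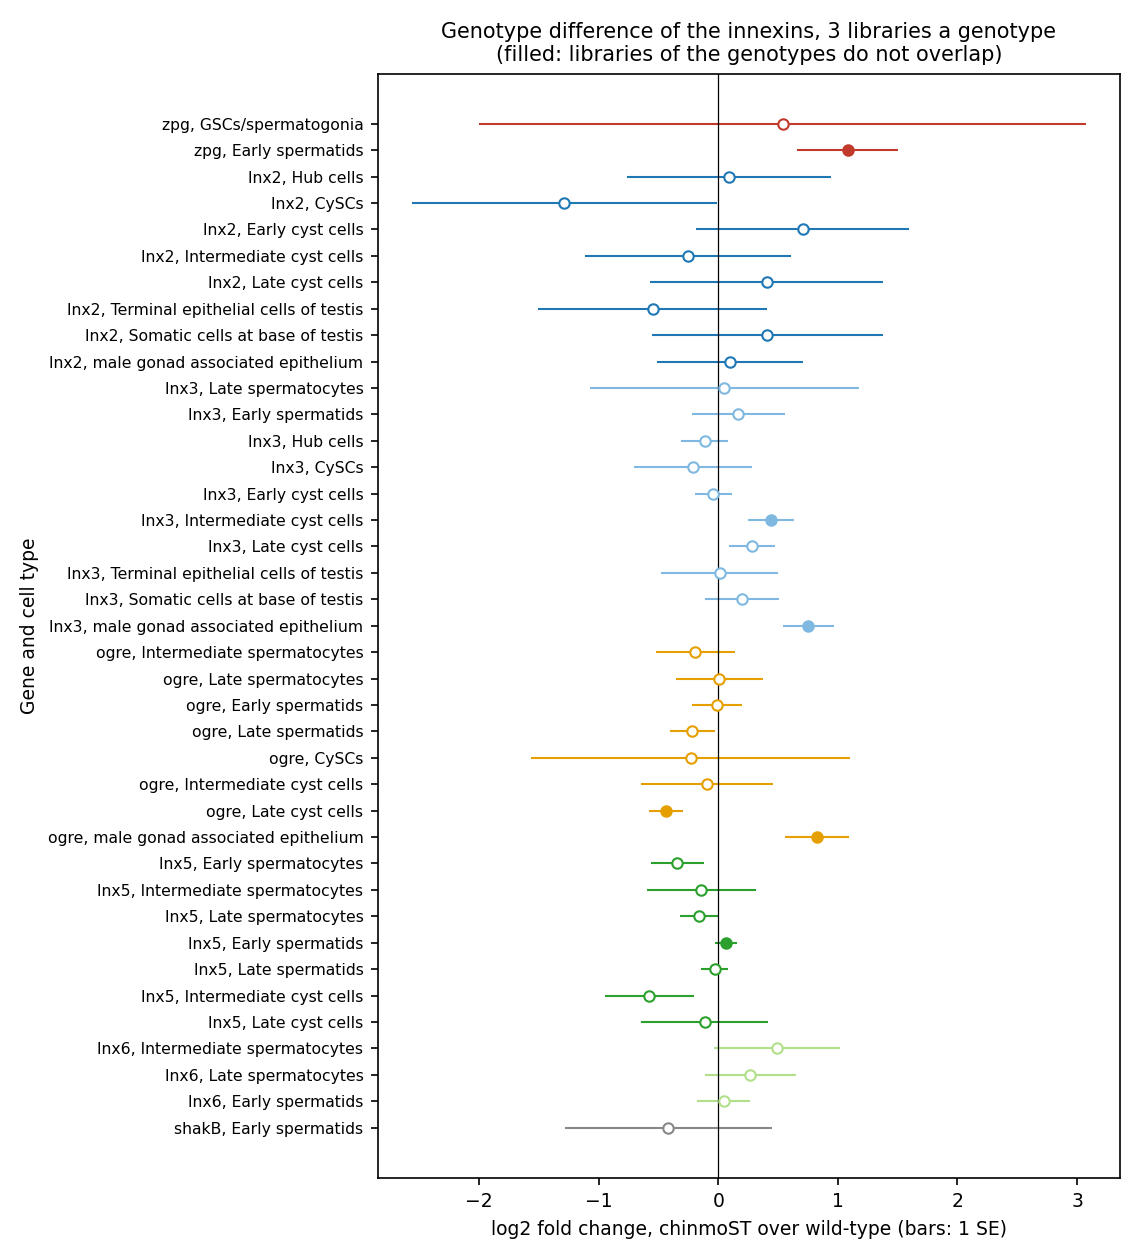
Log2 fold change of chinmoST over wild-type for the 39 tested pairs of an innexin and a cell type (edgeR), with bars of 1 SE from the spread between 3 libraries a genotype. The 6 filled points are pairs whose libraries do not overlap, and the bars of zpg in GSCs/spermatogonia and of Inx2 and ogre in CySCs are among the widest.

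Where the study's question is closest, the libraries leave room for large differences. For zpg in GSCs/spermatogonia the log2 fold change was 0.54 with an SE of 2.54 and an adjusted p of 0.766 (edgeR), and for Inx2 in CySCs it was -1.29 with an SE of 1.28 and an adjusted p of 0.797. ogre in CySCs was at -0.23 with an SE of 1.33. The wild-type values came from 28 GSCs/spermatogonia and 20 CySCs in all, and a change of several fold lies within the error there. The SE is a spread over the 3 ages of each genotype, not paired by age, so it includes differences between ages. For Inx2 the later libraries differed from those of 3–5 d by a log2 fold change of 2.69 in CySCs and 1.99 in late cyst cells. In some other pairs the error was smaller. Inx5 in late spermatids differed by -0.03 with an SE of 0.11, and Inx3 in early cyst cells by -0.04 with an SE of 0.15. Elsewhere the SE was 0.97 for Inx2 in 5411 late cyst cells and 1.13 for Inx3 in 3868 late spermatocytes. The error thus did not follow cell number alone.

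In 6 of the 39 pairs all libraries of 1 genotype lay above those of the other, 5 of them higher in chinmoST. This held for 16.4% of all tests, 8.57% with chinmoST higher and 7.78% with it lower. Inx3 in the male gonad associated epithelium was at 376, 208 and 226 CPM (wild-type) against 442, 517 and 405 CPM (chinmoST). Its log2 fold change was 0.75 (SE 0.21) with an unadjusted p of 0.0331 and an adjusted p of 0.599 (edgeR). ogre in the same type was at 21.7, 23.8 and 12.7 CPM (wild-type) against 29.2, 46.5 and 28.5 CPM (chinmoST), a log2 fold change of 0.83 (SE 0.27, adjusted p of 0.599). Both innexins were thus higher in every chinmoST library of this type, and neither passed the test.

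Inx3 in intermediate cyst cells was at 85.5, 65.5 and 83.5 CPM (wild-type) against 126, 92.9 and 98.8 CPM (chinmoST). Its log2 fold change was 0.44 with an SE of 0.19 and an adjusted p of 0.643 (edgeR). ogre in late cyst cells was the 1 pair with lower values in chinmoST, 4.22, 3.88 and 4.07 CPM against 5.94, 6.39 and 4.33 CPM. Its log2 fold change was -0.44 with an SE of 0.14, an unadjusted p of 0.264 and an adjusted p of 0.9997 (edgeR). Inx5 in early spermatids differed by only 0.06 (SE 0.09, edgeR adjusted p of 0.959). zpg in early spermatids was at 1.61, 0.949 and 0.850 CPM (wild-type) against 1.81, 1.91 and 4.51 CPM (chinmoST). Its log2 fold change was 1.08 with an SE of 0.42 and an adjusted p of 0.430 (edgeR). The early germline list (vas, nanos, bam, aub) in the same cells stood at 4.39, 4.35 and 3.40 CPM (wild-type) against 3.80, 9.55 and 22.3 CPM (chinmoST), and its part in the zpg values was not tested.

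In early spermatocytes the zpg counts were too low to pass the filter, and nearly all of them lay in chinmoST. Wild-type libraries held 1, 0 and 0 zpg UMIs among 106, 102 and 79 cells, and chinmoST libraries held 3, 8 and 41 among 130, 452 and 906 cells. This gives 1.81, 0 and 0 CPM against 8.42, 6.49 and 19.6 CPM. The pooled ratio was 21.3 with an exact counting interval of 3.67 to 859, which does not include the spread between libraries. Against the wild-type floor of 3 counts it was 7.12. Of the 52 chinmoST UMIs 41 came from the library of 9–11 d, where 1 cell held 9 of them. The counting intervals treat UMIs of the same cell as independent. Without that library the ratio was 10.5 (1.52 to 450). By age, the ratio was 4.65 (0.374 to 244) at 3–5 d, and the lower bounds were 0.894 at 6–8 d and 1.59 at 9–11 d. Without the filter, edgeR gave a log2 fold change of 4.14 and an adjusted p of 0.00326, in a fit that called 9.09% of all genes. Over all types without the filter 3 innexin tests were called, against 1.2% of all tests, the others being Inx6 and Inx7 in GSCs/spermatogonia, lower in chinmoST and resting on 6 and 3 wild-type UMIs.

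Of the 4 other early germline genes, vas and aub were higher in every chinmoST library than in any wild-type library in these cells. The genotypes overlapped for bam, at 7.75 to 19.2 CPM (wild-type) against 9.74 to 31.1 CPM (chinmoST). They also overlapped for nanos, which at 3–5 d was lower in chinmoST (2.81 against 5.43 CPM). The summed level of the 4 genes was 63.3, 20.2 and 67.2 CPM (wild-type) against 109, 180 and 194 CPM (chinmoST), with each gene detected in every library. Somatic cells with zpg were also most frequent in the chinmoST library of 9–11 d, at 2.09% of cells against 3.31% of early spermatocytes. These shares differ in depth, with a median of 2343.5 UMIs per somatic cell against 1476. By level, zpg was at 2.86 CPM in that soma against 19.6 CPM. Of the 30 early spermatocytes with zpg 14 had a UMI of the 4 other genes, as had 246 of all 906. In the chinmoST libraries of 3–5 d and 6–8 d, 3 of 3 and 1 of 7 cells with zpg had one. Early spermatocytes came from several of the authors' clusters. Cluster 9 held 12, 31 and 10 of them in wild-type against 19, 227 and 596 in chinmoST. In cluster 4 zpg was at 2.33, 0 and 0 CPM (wild-type) against 10.5, 1.22 and 21.9 CPM (chinmoST). In cluster 9 it was at 0, 0 and 0 CPM (wild-type) against 0, 12.5 and 14.5 CPM (chinmoST). The part of cluster make-up, of spermatogonia within this cell type, and of free RNA from the many spermatogonia of the 9–11 d library, was not tested.

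Whether the effect of genotype differed between cell types was tested as an interaction for 3 pairs of types, with 14 innexin tests. None was called by edgeR, nor any gene at all in these fits (0%), and 5 of the 14 had an unadjusted p under 0.05, against 7.98% of all genes in the 3 fits together. With the library as a block, which takes account of sums that come from the same library, 2 were called. These were ogre between CySCs and GSCs/spermatogonia (adjusted p of 0.0309, 1.57% of genes called) and Inx6 between GSCs/spermatogonia and early spermatocytes (adjusted p of 0.0363, 1.08% called), and none between CySCs and intermediate cyst cells (0.752% called). Both rest on the wild-type GSCs/spermatogonia, where ogre had 12, 0 and 0 UMIs and Inx6 had 3, 3 and 0.

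Other genes of cell contact were counted beside the innexins, 6 of adherens junctions and 12 of septate junctions. In 208 tests over the 17 types none was called by edgeR, 21 had an unadjusted p under 0.05, and DESeq2 called 4. With age as a block 13 were called (6.25%), close to the 6.48% of all genes in that fit. Of these 10 were higher and 3 lower in chinmoST, and they are named after their values were seen. In intermediate cyst cells Fas3, cora, shg, Lac, scrib and Nrg were higher and CadN lower (log2 fold change -1.65, adjusted p of 0.0290 by edgeR), where the ages pair the libraries and 19.6% of all genes were called. In early spermatocytes arm, alpha-Cat, pck and p120ctn were higher and nrv2 lower, with 27.4% of all genes called, and CadN was lower in early spermatids, with 4.28% called. The innexins tested in intermediate cyst cells were not called in that fit.

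A contrast larger than the replicate spread was found for Inx2 between the 3–5 d libraries and the later ones. It was noticed in the values and then fitted as a term for the 4 later libraries against the 2 of 3–5 d, adjusted for genotype, so it is no independent test. Inx2 was called higher in the later libraries in 8 of the 8 types in which it was tested, against 20% of all genes in those types. The log2 fold changes ran from 1.40 to 2.69, with adjusted p values from 0.000129 to 0.0267 (edgeR). All 8 types kept this direction when each library was left out in turn, but the calls fell to 4 of 9 tested types without the wild-type library of 3–5 d and to 5 of 9 without the chinmoST library of 3–5 d.

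In late cyst cells Inx2 was at 9.16, 51.3 and 50.1 CPM (wild-type) against 19.5, 53.1 and 82.2 CPM (chinmoST), a log2 fold change of 1.99. In intermediate cyst cells it was at 11.2, 48.3 and 47.0 CPM (wild-type) against 14.6, 45.4 and 31.7 CPM (chinmoST), a log2 fold change of 1.80. In somatic cells at the base of the testis it was at 17.1, 64.1 and 100 CPM (wild-type) against 31.1, 121 and 104 CPM (chinmoST), a log2 fold change of 2.02. In these types each 3–5 d library lay below all 4 later ones. In early cyst cells and terminal epithelial cells the ranges overlapped. The lowest later values there were 38.8 and 74.0 CPM, and the highest at 3–5 d were 39.2 and 101 CPM. The ratio of the later mean to the 3–5 d value was between 1.80 and 13.1 in the 16 combinations of type and genotype, with a median of 4.15.

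**Figure D5:**
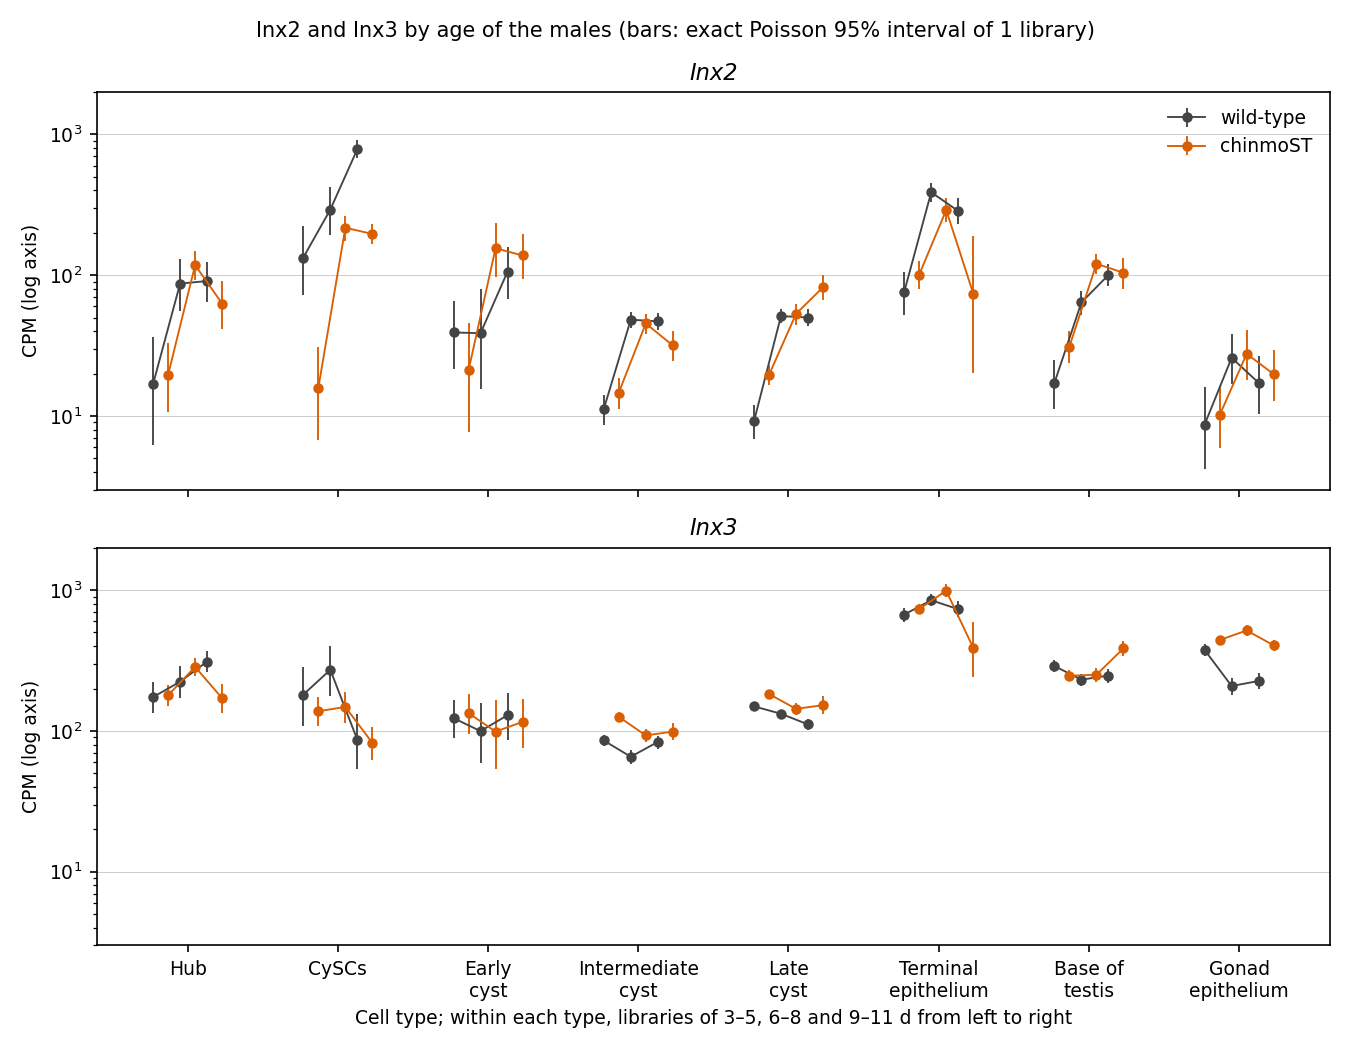
Inx2 (top) and Inx3 (bottom) in 8 somatic types (CPM, log axis), with the libraries of 3–5, 6–8 and 9–11 d joined by lines for wild-type and chinmoST and bars for the exact Poisson 95% interval of each library. Inx2 starts low at 3–5 d in most types, with 3–5 d and later libraries overlapping in early cyst and terminal epithelial cells, while Inx3 shows no such step.

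Inx3, in the same cells, showed no such step. It was called in none of its somatic tests, and its log2 fold change was between -0.39 and 0.16 there. Among the 31 tests of the innexins other than Inx2, 4 were called and all 4 were lower in the later libraries. Of the 31 fold changes 17 were above 0, and that furthest from 0 was ogre in CySCs, at a log2 fold change of 2.60 beside 2.69 for Inx2 in the same cells, with an adjusted p of 0.0537 (edgeR). Over all genes and types 11.5% of tests were called lower and 16.2% higher. The 4 were Inx3 in late spermatocytes (log2 fold change -2.06, adjusted p of 0.0103), Inx5 in late cyst cells (-1.04, adjusted p of 0.0206), ogre in intermediate cyst cells (-0.99, adjusted p of 0.0334) and zpg in GSCs/spermatogonia (-1.35, adjusted p of 0.0269). For zpg the ages overlapped, from 161 to 246 CPM at 3–5 d and from 0 to 232 CPM later. The 232 CPM belonged to the wild-type library of 9–11 d, above the 161 CPM of wild-type at 3–5 d. With each of the 6 libraries left out in turn, the calls of Inx3 and Inx5 held in 5 and those of ogre and zpg in 3. Inx3 lost its call without the chinmoST library of 3–5 d (adjusted p of 0.0737) and Inx5 without the wild-type library of 3–5 d (adjusted p of 0.412). ogre and zpg lost theirs without any 1 of the chinmoST libraries, with edgeR adjusted p-values of 0.0529 to 0.381 for ogre and 0.259 to 0.487 for zpg.

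The first 3 of these concern genes at a low level in a type where another lineage holds them at a high level. Inx3 in late spermatocytes fell from 11.7 and 16.9 CPM at 3–5 d to between 1.08 and 5.71 CPM later. The cyst lineage genes in these cells were at 24.2 and 18.5 CPM at 3–5 d and between 45.9 and 58.2 CPM later, and in intermediate cyst cells they were also higher later, 31.5 and 34.4 CPM against 116 to 146 CPM. Spermatid genes moved with Inx5 in late cyst cells, with a summed level of 448, 299 and 163 CPM (wild-type) against 321, 169 and 197 CPM (chinmoST). They moved likewise in intermediate cyst cells, at 530, 337 and 208 CPM (wild-type) against 369, 191 and 180 CPM (chinmoST). The part of RNA from the other lineage in the Inx3, Inx5 and ogre values was not tested.

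In hub cells, CySCs and early cyst cells, the cyst lineage genes were higher in all 4 later libraries than at 3–5 d. They were so too in intermediate and late cyst cells and the somatic cells at the base of the testis. Their summed level in hub cells was 61.7, 459 and 541 CPM (wild-type) against 74.1, 543 and 348 CPM (chinmoST), and in CySCs 162, 627 and 436 CPM (wild-type) against 191, 757 and 365 CPM (chinmoST). In terminal epithelial cells and the male gonad associated epithelium, where Inx2 was called too, not all 4 later libraries were higher. In terminal epithelial cells the level was 8.93, 42.6 and 22.5 CPM (wild-type) against 12.9, 52.5 and 0 CPM (chinmoST). The last came from 9 cells, where Inx2 was also lower than at 3–5 d (74.0 against 101 CPM). In the epithelium of wild-type it rose from 8.70 CPM at 3–5 d in both later libraries, to at most 37.3 CPM. In chinmoST it was at 20.3, 32.1 and 15.1 CPM there. Whether Inx2 and these genes moved together was not tested. Because both 3–5 d libraries also differed from the later ones in their number of barcodes and in the barcodes they shared, age and library preparation cannot be told apart.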

How the data were processed

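Testes of wild-type and chinmoST males were profiled by droplet single-cell RNA sequencing, with 1 library per genotype and age. Per the labels and methods the authors ran Cell Ranger 4.0.0 on dm6 to obtain UMI counts, and clustered cells with Seurat (3.0 and 3.2.2 are both listed), and the deposited counts were not normalized. Their filter removed barcodes outside 200 to 6000 genes or with 10% or more of mitochondrial reads. Strand settings are not given in the sources used here. Columns of other deposited values, such as the gene numbers and percentages of mitochondrial UMIs of the cells, were not used, and no doublet caller was run on the authors' set of cells.

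UMI counts were summed per library and cell type. CPM was taken from these sums, with exact Poisson and Clopper-Pearson 95% intervals and a floor of 3 counts. Shares were also computed for cells thinned to 1000 or 2000 UMIs. Total UMIs of kept cells ranged from 24746443 to 41822738 per library. The sums were compared with edgeR 4.0.16 in R 4.3.3 (quasi-likelihood test, TMM, default filter, a library with at least 3 cells of a type, at least 2 libraries per genotype). The SE comes from the spread of log2 CPM with a prior count of 2 and not from that fit. The 3 ages served as replicates, so p-values measure the spread between these libraries, which includes age. Ages paired the libraries in 12 of 17 types, where both libraries of every age deviated together (r over 0.1). Alternatives were RLE scaling, no filter, only cells with at least 2105 UMIs, DESeq2, age or library as a block, a term for 3–5 d, at least 10 cells, and leaving out each library. The term for later ages as a contrast was added after seeing the data. The members, gene lists and tests were chosen with earlier results of these data known. A fold change of an innexin between genotypes was printed where the libraries did not overlap or a test was called. It was also printed for zpg, Inx2 and ogre in their main types and for 2 pairs with a small SE. Both of these sets were picked with their values known. The edgeR script was tested on simulated data. Python 3.11.15 with scipy and matplotlib was used for the rest.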

Additional observations from a re-analysis of the deposited data

Results flagged for a closer look

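ogre is listed because its libraries separated by genotype in opposite directions between cell types. Every chinmoST library was higher in the male gonad associated epithelium (log2 fold change 0.83, edgeR adjusted p of 0.599). There 12.7% of all genes had no overlap between genotypes. Every chinmoST library was lower in late cyst cells (log2 fold change -0.44, edgeR adjusted p of 0.9997), where 8.01% of all genes had no overlap. Neither passed the adjusted threshold of edgeR, and the difference between the types was not tested.

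The barcodes with over 6000 detected genes, 1041 in all, were left out of the table of cells, yet they hold innexin UMIs above the floor of 3 counts in all 6 libraries. The median over libraries was 42.4 CPM for Inx5, 30.7 for ogre, 6.90 for Inx6, 5.47 for zpg, 4.31 for Inx3, 2.51 for Inx2, 1.42 for shakB and 0.374 for Inx7. Of the UMIs of both sets, the left-out barcodes held 84.3% for Inx6, 76.4% for Inx5, 74.5% for ogre and 64.2% for zpg, 78.01% for shakB and 50.7% for Inx7, against 21.8% for Inx2 and 9.80% for Inx3. Over all genes the kept cells held 20.4% to 51.8% of the UMIs of a library, so large shares outside them are not particular to the innexins. For zpg the level in the left-out barcodes ranged from 1.27 to 24.8 CPM between libraries.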

How the results depend on the processing

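The count of innexins called between genotypes, 0 of 39, was also 0 with RLE scaling, the UMI minimum, DESeq2, age as a replicate block, the term for 3–5 d, at least 10 cells and without each library. Without the filter 3 of 122 were called, zpg in early spermatocytes and Inx6 and Inx7 in GSCs/spermatogonia. The interaction count of 0 rose to 2 with the library as a replicate block and was 0 under the other alternatives. Contact genes gave 0 calls in the main fit, 3 without the filter, 1 with the UMI minimum, 4 with DESeq2, 13 with age as a replicate block, 11 with the term for 3–5 d, and 0 to 11 without 1 library, the 11 being without the chinmoST library of 3–5 d. The type of the highest share with a UMI stayed the same for 5 of 8 innexins when cells were thinned to 1000 or to 2000 UMIs, with Inx2 and Inx3 moving from hub cells to terminal epithelial cells and shakB to hemocytes. The 8 types with Inx2 called higher at later ages became 4 to 8 without 1 library, with 4 without the wild-type and 5 without the chinmoST library of 3–5 d, and the 4 calls of other innexins became 2 with the UMI minimum, 2 with DESeq2 and 2 to 5 without 1 library, the 2 being without the chinmoST library of 3–5 d or of 9–11 d. The 6 fold changes between genotypes without overlap kept their direction under these alternatives. With 3 libraries a genotype, and 4 to 33 CySCs and 4 to 211 GSCs/spermatogonia in each, depth limits precision in the stem cell types.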
